A study of Homo sapiens with 24 samples.

Results

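The 46 genes described here encode proteins that license, fire and copy DNA replication origins, the cyclin E and E2F proteins of the G1/S transition, and enzymes that supply nucleotides and histones to the fork. They were chosen by name, with earlier results of these data known, and all 46 names were found among the 57773 genes of the expression table. Of the 46, 45 reached 1 TPM (a level per transcript length, relative to the library's total) in at least 2 libraries and were tested, within 16994 genes in all. The exception was CCNE2, which encodes the second E-type cyclin and stayed below 1 TPM in every library.

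The cells were SKOV3.ip1, an established human line from ovarian carcinoma, and 24 libraries of their total RNA, depleted of ribosomal RNA and fragmented, were made by TGIRT-seq, whose reverse transcriptase comes from a thermostable group II intron. Each of 4 RNA-binding splicing regulators was depleted for 72 h with a pair of siRNAs, each used at 100 nM: RBFOX2 (siRNA_1 and siRNA_2), hnRNPC (siRNA_2 and siRNA_3), hnRNPM (siRNA_1 and siRNA_3) and SRSF1 (siRNA_1 and siRNA_3). The 8 siRNA groups and the 4 mock sets, which received Lipofectamine and no siRNA, held 2 libraries each. The mock set named n4/n5 served both RBFOX2 siRNAs, oct served both hnRNPC siRNAs and hnRNPM siRNA_1, jan served hnRNPM siRNA_3 and SRSF1 siRNA_3, and nov served SRSF1 siRNA_1. The comparisons of hnRNPC with hnRNPM and of hnRNPM with SRSF1 therefore shared mock libraries. The series calls the 2 libraries of a group biological replicates and says no more of their origin. All groups were cells of 1 line, so the p-values below rest on the spread between libraries of the same group within that line. Whether those libraries came from separate cultures is not stated. That spread includes any deviation shared by libraries with the same replicate number, except in fits that include the number.

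Before S phase, the origin recognition complex with CDC6 and CDT1 loads the MCM2-7 helicase onto origins as an inactive ring. CDC45 and the GINS complex then turn the ring into the active helicase, and primase, the DNA polymerases, the PCNA clamp and its RFC loader follow. Most of these genes are transcribed at the G1/S transition by E2F factors, which the retinoblastoma family holds back in G1. Splicing regulators such as the 4 depleted here bind pre-mRNA and influence which exons are joined.

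Each targeted RNA stood at 22.1% to 28.9% of its mock mean in its own siRNA libraries, and limma called each of the 4 lower there and none of them in another protein's comparison. Of 10 epithelial and ovarian carcinoma markers 8 were tested, among them ERBB2 at 379 to 644 scaled TPM and EPCAM at 23.9 to 31.5, whereas WT1 and MUC16 reached at most 0.211 and 0.0150. The leukocyte, endothelial and fibroblast markers found in the table reached at most 0.677 scaled TPM (LUM), so markers of other cell types were near 0. Among all genes, 12637 to 15734 reached 1 TPM in a library. The rank correlation of a library's deviations with the GC content of protein-coding genes ran from -0.605 (mock jan replicate 1) to 0.596 (RBFOX2 siRNA_2 replicate 5). Sequencing depth is unknown, since only TPM were deposited. In bulk RNA, a change in the share of cells in a phase of the cycle and a change in RNA per cell cannot be told apart.

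A sequence feature that the choice by name did not use was more frequent in the promoters of these genes than in those of others. E2F-type octamers (TTTCCCGC, TTTCGCGC, TTTGCCGC or TTTGGCGC, on either strand) lay in 20 of the 41 members with a RefSeq promoter window on GRCh38.p14 (48.8%), against 3.31% of all 35116 windows of 300 bases and 4.88% of the 13043 windows of other tested genes. The pentamer CCAAT lay in 56.1% of members' windows, 34.6% of all and 34.8% of those of other tested genes. The hexamer TTTGAA, a core of elements of later cell cycle genes, lay in 1 of 41 members' windows (2.44%). It lay in 15.2% of all windows and 10.3% of those of other tested genes. The 250 bases before the annotated start are shown for 6 members, with the octamers in capitals. MCM7 and GINS2 were among the members with the highest fold changes after RBFOX2 depletion; MCM6 holds 4 octamers and had a log2 fold change of -0.04 there; RFC3 and RFC1 are subunits of the same complex with different behaviour; and E2F4 is the member that passed the test after RBFOX2 depletion. The windows are at chr7:100101398-100101647, minus strand (MCM7), chr16:85688955-85689204, minus strand (GINS2), chr2:135876444-135876693, minus strand (MCM6), chr13:33817899-33818148, plus strand (RFC3), chr4:39366363-39366612, minus strand (RFC1) and chr16:67191905-67192154, plus strand (E2F4).
MCM7 promoter: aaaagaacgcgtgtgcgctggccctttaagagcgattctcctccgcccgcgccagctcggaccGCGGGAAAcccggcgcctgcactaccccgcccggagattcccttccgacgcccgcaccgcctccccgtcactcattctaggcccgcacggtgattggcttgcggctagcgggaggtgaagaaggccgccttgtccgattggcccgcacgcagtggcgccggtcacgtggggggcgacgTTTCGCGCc
GINS2 promoter: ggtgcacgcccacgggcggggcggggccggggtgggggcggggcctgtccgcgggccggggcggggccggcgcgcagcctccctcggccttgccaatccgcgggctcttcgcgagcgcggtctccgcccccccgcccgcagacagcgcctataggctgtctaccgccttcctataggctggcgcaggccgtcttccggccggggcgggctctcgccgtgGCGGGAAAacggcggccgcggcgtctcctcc
MCM6 promoter: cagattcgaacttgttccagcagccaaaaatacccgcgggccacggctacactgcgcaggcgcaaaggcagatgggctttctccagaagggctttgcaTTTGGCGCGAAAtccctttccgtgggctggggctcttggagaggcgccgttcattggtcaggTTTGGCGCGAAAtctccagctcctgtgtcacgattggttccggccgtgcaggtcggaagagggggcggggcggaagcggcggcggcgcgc
RFC3 promoter: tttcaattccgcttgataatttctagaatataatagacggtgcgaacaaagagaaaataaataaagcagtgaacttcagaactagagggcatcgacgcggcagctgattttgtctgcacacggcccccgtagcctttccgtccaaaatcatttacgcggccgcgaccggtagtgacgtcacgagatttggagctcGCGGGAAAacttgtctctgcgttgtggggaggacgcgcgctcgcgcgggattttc
RFC1 promoter: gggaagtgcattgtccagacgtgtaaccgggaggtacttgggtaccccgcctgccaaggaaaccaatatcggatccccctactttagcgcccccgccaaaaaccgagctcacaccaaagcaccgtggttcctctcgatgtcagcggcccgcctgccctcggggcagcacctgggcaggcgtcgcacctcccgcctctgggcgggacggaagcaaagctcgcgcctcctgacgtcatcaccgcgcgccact
E2F4 promoter: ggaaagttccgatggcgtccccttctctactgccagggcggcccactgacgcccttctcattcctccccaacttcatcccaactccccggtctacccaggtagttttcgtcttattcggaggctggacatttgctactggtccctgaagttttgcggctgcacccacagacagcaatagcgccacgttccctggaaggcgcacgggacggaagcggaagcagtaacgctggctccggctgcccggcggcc
The matches in MCM6, like those in MCM2, overlap each other: TTTGGCGC on the gene's strand shares bases with TTTCGCGC on the other strand. The windows of RFC1 and E2F4 hold no match to the 4 octamers. After RBFOX2 depletion the median log2 fold change was 0.20 for the 20 members with an octamer and 0.19 for the 21 without, and after SRSF1 depletion it was 0.04 and 0.08.

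In the 8 mock libraries the members spanned levels from 28.4 ± 2.44 scaled TPM (SD, n = 8) for PCNA, the sliding clamp, to 0.331 ± 0.0556 for CCNE2. Scaled TPM are the deposited values divided by a factor per library that sets the bulk of genes equal. After PCNA came SLBP, which binds the stem-loop of histone mRNAs, at 25.6 ± 1.25, then RFC4 at 22.0 ± 2.83 and RFC1 at 18.4 ± 2.20, which overlapped in range with RPA2 at 17.9 ± 1.32, MCM3 at 17 ± 1.89 and E2F4 at 16.9 ± 1.16. Within the helicase ring, MCM3 led, MCM4, MCM2 and MCM7 lay between 13.5 and 13.7, MCM5 was at 7.93 and MCM6 at 5.55. At the low end stood CDT1 at 1.01 ± 0.105, GINS2 at 1.05 ± 0.150 and ORC1 at 1.17 ± 0.143, which are not separated by their spread. The limma F test over the 4 mock sets called 0 of 45 members, against 5.53% of all genes; RFC1 came closest, with set means of 15.9 to 20.8 scaled TPM (adjusted p = 0.0551).

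**Figure D1:**
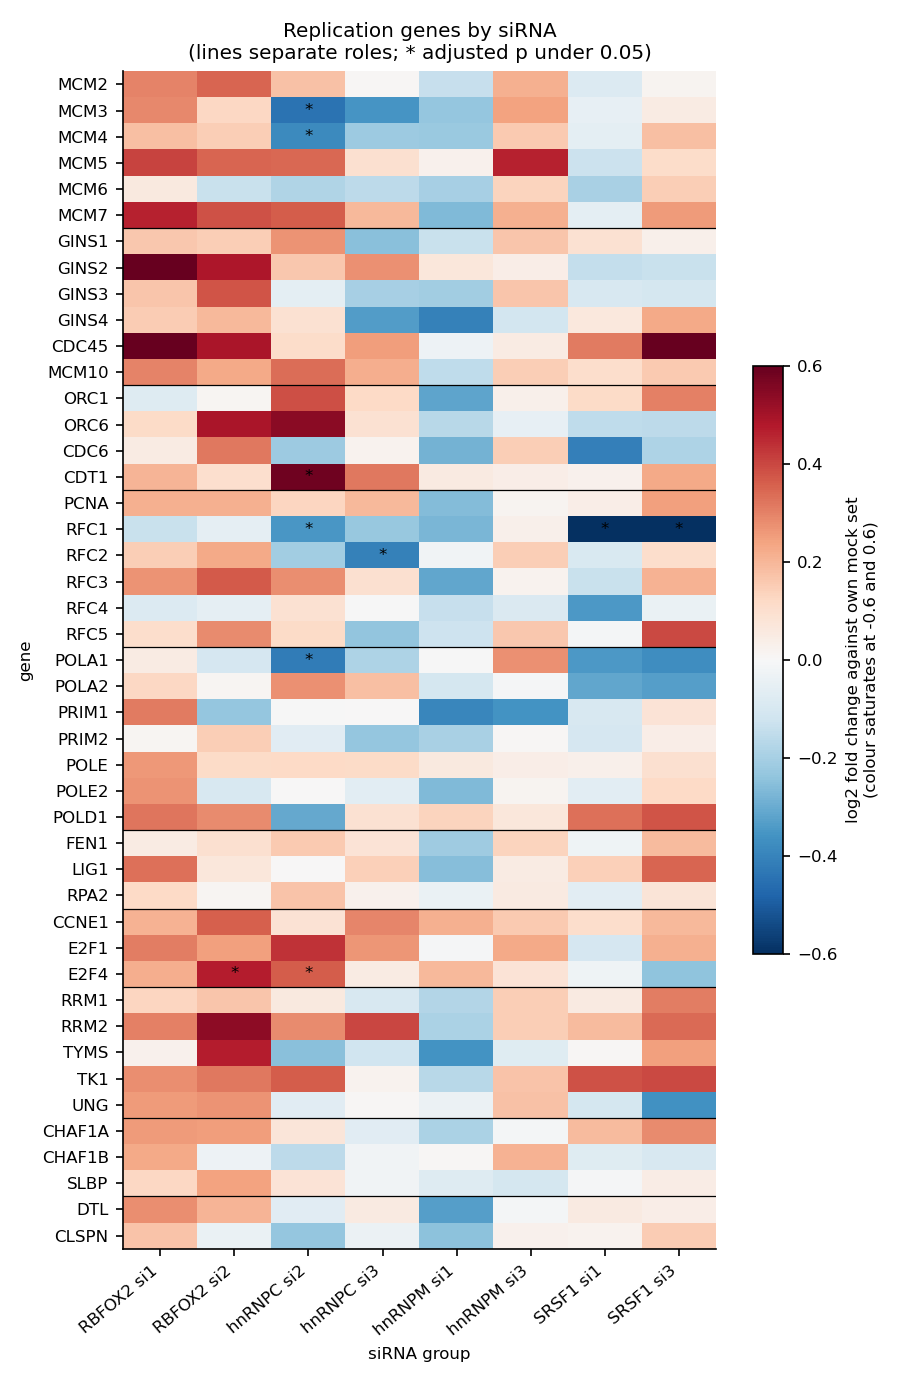
Log2 fold change of each of the 45 tested genes (rows, grouped by role) for each siRNA against its own mock set (columns); red is higher and blue lower than mock, and a star marks a limma adjusted p under 0.05 for that siRNA. The RBFOX2 columns are mostly red, and RFC1 is the darkest blue in both SRSF1 columns (log2 fold changes of -0.98 and -1.05).

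RBFOX2 is a splicing factor that binds GCAUG elements in pre-mRNA. Depleting it left 40 of the 45 members higher than in mock, and their median was 0.19 on the log2 scale, against 50.9% of all genes and a median of 0.004. Because the members were chosen with earlier results of these data known, these values are a description, and no test of the set is given. The shift appeared in several roles. Higher were 6 of 6 helicase activators, 5 of 6 MCM subunits and 5 of 5 genes of nucleotide supply and uracil removal, with medians of 0.27, 0.26 and 0.26. Of the polymerase and primase genes 6 of 7 were higher, with a median of 0.08. In other roles RFC1 and RFC4 of the clamp loader and ORC1 of origin recognition were below mock. The counts of the remaining roles are not given here. By limma, however, 1 member was called higher and 0 lower, where 0.0235% and 0.0883% of all genes were (0.112% in all): E2F4 rose. For siRNA_2 alone E2F4 was again the member called, with 0.818% of all genes, and the difference between the siRNAs was called for 0 members and 1.51% of all genes. At an unadjusted p under 0.05, 16 members were higher and 0 lower (12.2% of all genes in either direction).

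E2F4 encodes the E2F factor that with pocket proteins represses cell cycle genes in resting cells. Its level was 16.7 and 17.7 scaled TPM in mock replicates 4 and 5, 20.2 and 20.2 with siRNA_1 and 24.2 and 24.2 with siRNA_2. The groups did not overlap, and siRNA_2 gave the higher level. The log2 fold change was 0.35 (SE 0.0572, 95% interval 0.22 to 0.47, limma adjusted p = 0.0299). Leaving out any 1 of the 6 libraries gave an adjusted p between 0.0643 and 0.489, with a log2 fold change of 0.31 to 0.38, so the call rests on all of them together.

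Among the helicase genes, CDC45, which with GINS completes the active helicase, stood at 2.5 and 1.89 scaled TPM in the mock libraries, at 5.59 and 3.26 with siRNA_1 and at 4.55 and 2.59 with siRNA_2 (replicates 4 and 5 in each). Replicate 4 was higher than replicate 5 in each group, and every siRNA library was above both mock libraries. The log2 fold change was 0.61 (SE 0.194, limma adjusted p = 0.206). GINS2, a GINS subunit, stood at 0.898 and 1.15 in the mock libraries against 2.33, 1.83, 1.93 and 1.73 in the siRNA libraries, with a log2 fold change of 0.55 (SE 0.113, limma adjusted p = 0.0686). The MCM subunit MCM7 stood at 15.7 and 13.4 in mock and at 22.4, 18.5, 21.7 and 17 after depletion, a log2 fold change of 0.42 (limma adjusted p = 0.201). In all, 14 members had every siRNA library above both mock libraries and 0 had every one below, where 10.6% and 9.91% of all genes did.

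On the scaled values, the 5 members that were not above mock were RFC1 (-0.09), RFC4 (-0.07), MCM6 (-0.04), ORC1 (-0.03) and POLA1 (-0.03). RFC1, the large subunit of the clamp loader, stood at 16.9 and 15.0 scaled TPM in mock and 14.4, 14.4, 15.3 and 15.3 after depletion (limma adjusted p = 0.658). RFC4, a small subunit of that loader, stood at 20.2 and 19.0 in mock and 19.3, 17.6, 20.7 and 17 after depletion (adjusted p = 0.854). For both genes the ranges overlapped, and on unscaled values, where the median of all genes moved up by 0.21, both stood above mock (0.16 and 0.19).

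Taking siRNA and mock libraries with the same replicate number, the median difference was 0.23 and 0.18 for siRNA_1 and 0.19 and 0.21 for siRNA_2 in replicates 4 and 5, with 37 to 39 of 45 members higher in each. Replicates differed in level: the members' median deviation from their mean over 24 libraries was 0.09 and -0.08 in mock replicates 4 and 5, 0.31 in both replicate 4 siRNA libraries and 0.09 and 0.10 in those of replicate 5. With the replicate number as a block, limma called 8 members, all higher: CDC45, GINS2, MCM5, MCM7, ORC6, RFC3, E2F4 and UNG (2.14% of all genes called). Without mock replicate 5 the median fell to 0.10, with 33 of 45 members higher, and without mock replicate 4 it was 0.28. The GC content of protein-coding genes correlated with this comparison's fold change by rank at 0.44 (0.42 over the members), and mock replicates 4 and 5 stood at -0.196 and 0.546 on the GC measure. After a correction for GC the members' median was 0.17 with 39 of 45 higher, and 0 were called. Correction and block together gave 10, where 2.97% of all genes were called.

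**Figure D2:**
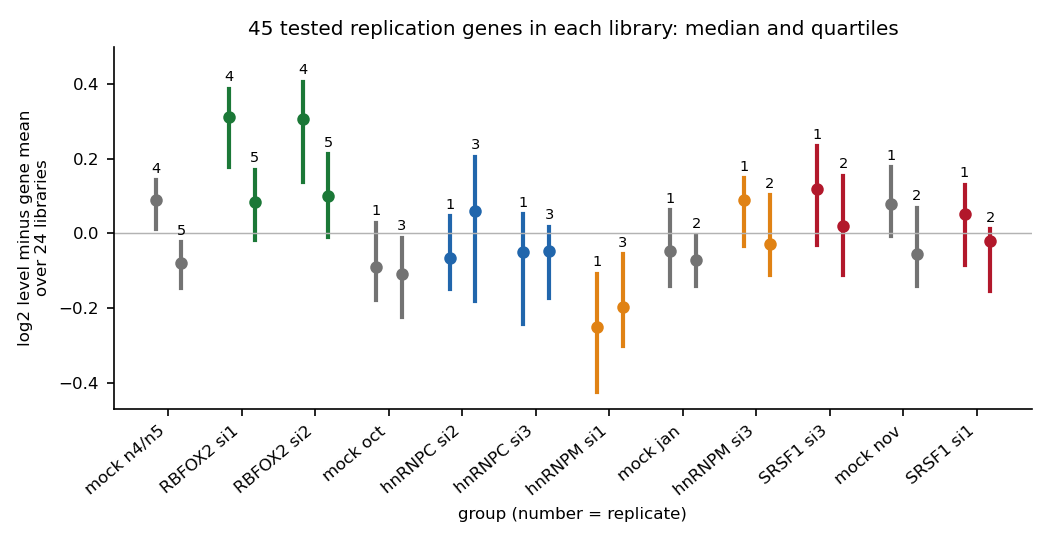
Deviation of the 45 tested genes from each gene's mean over 24 libraries (log2 scale, vertical axis), as median (point) and quartiles (line) in each library, by group and replicate number. RBFOX2 replicate 4 libraries are highest (0.31), and the hnRNPM siRNA_1 libraries lowest (-0.25 and -0.20).

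**Figure D3:**
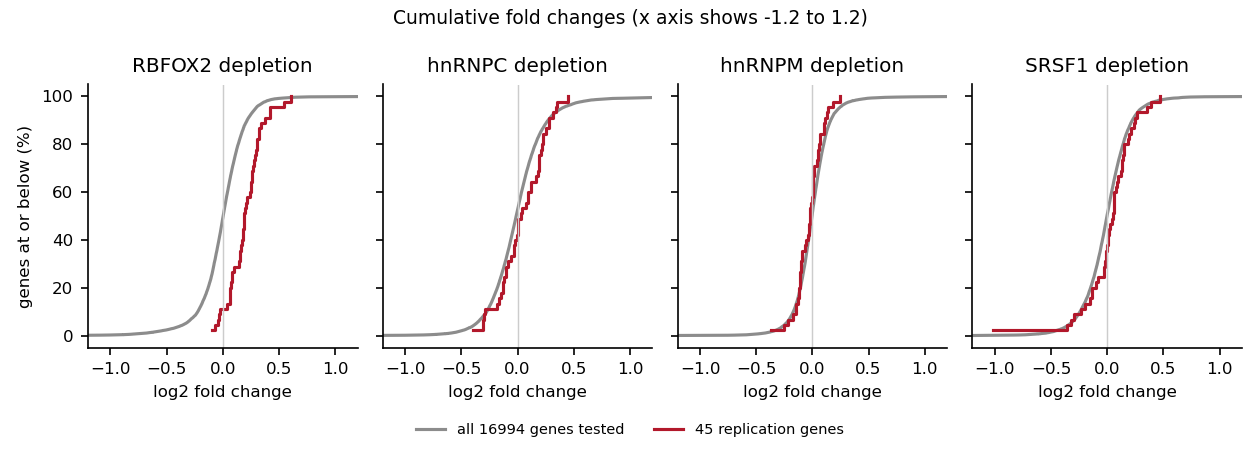
Cumulative distribution of log2 fold changes for each protein, with the 45 replication genes in red and all 16994 tested genes in grey. The red curve lies to the right of the grey in the RBFOX2 panel (medians 0.19 and 0.004) and near it in the others, and the red step that starts at the left of the SRSF1 panel is RFC1 (-1.01).

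hnRNPC binds uridine tracts in nascent transcripts. After its depletion members moved in both directions: CDT1 and E2F4 rose, and MCM3, MCM4, RFC1 and RFC2 fell. These 6 of 45 compare with 6.45% of all genes called. The members' median was 0.03, with 26 of 45 above mock, and that of all genes was -0.01, with 47.5% above. By direction, 2.11% of all genes were called higher and 4.34% lower. All siRNA libraries lay above both mock libraries for 9 members and below them for 5, where 8.28% and 11.4% of all genes did so. Over the alternatives, which include leaving out single libraries, each of the 6 called members kept its sign but lost its call in some. The losses were 5 of 17 for CDT1, 6 of 18 for MCM4 and RFC1, 7 of 18 for MCM3, 9 of 18 for E2F4 and 10 of 18 for RFC2. Leaving out any single library lowered the count of 6. The share of all genes called in those fits is not given here, so the drop is not read as a trait of the members. With the replicate block limma called 11 members, 6 higher (CDT1, E2F4, E2F1, MCM10, ORC6 and RRM2) and 5 lower (MCM3, MCM4, RFC1, RFC2 and POLA1), where 13.3% of all genes were called.

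CDT1, the licensing factor that loads MCM2-7, stood at 0.958 and 0.942 scaled TPM in the oct mock libraries, at 1.93 and 1.92 with siRNA_2 and at 1.66 and 1.21 with siRNA_3. Every siRNA library was above both mock libraries. Its log2 fold change was 0.45 (SE 0.105, limma adjusted p = 0.0198), which the added 1 understates at this level: the mean of 4 libraries was 177% of the mock mean. The adjusted p was 0.0614 without siRNA_3 replicate 1, 0.0902 without mock replicate 1 and 0.117 without mock replicate 3.

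MCM3 and MCM4 fell while the other 4 subunits of the ring were not called. MCM3 stood at 19.5 and 15.4 scaled TPM in mock, 13.2 and 11.8 with siRNA_2 and 15.4 and 11.6 with siRNA_3, with mock replicate 3 just above the highest siRNA library. Its log2 fold change of -0.40 (SE 0.101, limma adjusted p = 0.0295) became -0.24 without mock replicate 1 (0.290), and the adjusted p was 0.0820 without siRNA_2 replicate 3 and 0.0672 without siRNA_3 replicate 3. MCM4 stood at 13.6 and 12.6 in mock, 9.94 and 9.66 with siRNA_2 and 11.6 and 10.7 with siRNA_3. All 4 siRNA libraries were below both mock libraries (log2 fold change -0.30, SE 0.0715, limma adjusted p = 0.0215), and the adjusted p was 0.0530 to 0.163 without siRNA_2 or siRNA_3 replicate 3 or either mock library. MCM5 (0.22) and MCM7 (0.28) were above mock in the same comparison without passing the test (limma adjusted p = 0.232 and 0.245).

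In the clamp loader, RFC2 and RFC1 fell and RFC3, RFC4 and RFC5 were not called. RFC2 stood at 10.1 and 10.0 scaled TPM in mock, 8.18 and 8.99 with siRNA_2 and 7.91 and 6.83 with siRNA_3 (log2 fold change -0.31, SE 0.0871, limma adjusted p = 0.0487). RFC1 stood at 17 and 18.4 in mock, 14.0 and 13.4 with siRNA_2 and 14.4 and 15.6 with siRNA_3 (log2 fold change -0.29, SE 0.0710, limma adjusted p = 0.0250). In both genes the siRNA libraries were all below mock. Leaving out a single library gave an adjusted p of up to 0.178 for RFC2, lost without every library except siRNA_3 replicate 1, and of up to 0.200 for RFC1, lost without siRNA_2 replicate 3, siRNA_3 replicate 1 or either mock library.

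E2F4 stood at 17.1 and 16.9 scaled TPM in mock, 22.0 and 22.3 with siRNA_2 and 18.3 and 16.9 with siRNA_3. Only the siRNA_2 libraries were clear of mock, and the difference between the siRNAs passed the test (log2 0.31, SE 0.0661, limma adjusted p = 0.00725; 11.1% of all genes differed between these siRNAs). That call was lost without siRNA_2 replicate 3 (adjusted p = 0.0608) or siRNA_3 replicate 3 (0.0754). Over both siRNAs the log2 fold change was 0.21 (SE 0.0572, limma adjusted p = 0.0430), and the adjusted p was 0.0586 to 0.188 without any 1 library except siRNA_3 replicate 3. On unscaled values it was 0.04 (limma adjusted p = 0.881). E2F1, the activating E2F factor, had the second highest fold change: 3.50 and 3.02 in mock, 5.16 and 4.34 with siRNA_2, and 4.85 and 3.45 with siRNA_3 (0.35, SE 0.135, adjusted p = 0.146). GINS1, a GINS subunit, also differed between the siRNAs: it stood at 5.06 and 4.88 in mock, 5.27 and 7.24 with siRNA_2 and 3.61 and 4.45 with siRNA_3 (log2 difference 0.52, SE 0.138, limma adjusted p = 0.0253). Without siRNA_2 replicate 3 that difference was 0.32 (limma adjusted p = 0.309), and without siRNA_3 replicate 1 it was 0.40 (0.176).

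By siRNA, limma called CDT1, E2F4, MCM3, MCM4, RFC1 and POLA1 for siRNA_2 (13.3% of all genes) and RFC2 for siRNA_3 (2.72%). POLA1, the catalytic subunit of DNA polymerase alpha, stood at 3.58 and 3.67 in mock, 2.66 and 2.26 with siRNA_2 and 2.95 and 3.17 with siRNA_3. For siRNA_2 alone its log2 fold change was -0.42 (SE 0.119, limma adjusted p = 0.0304), and over both siRNAs it was -0.30 (SE 0.103, adjusted p = 0.0969). Among the 8 tested epithelial and ovarian carcinoma markers, the keratins KRT7 (-0.60) and KRT19 (-0.42) fell in this comparison. The fold changes of the other markers are not given here, and the part of the keratins in these results was not tested. Over both siRNAs, no member was called on the deposited values without scaling, where the median of all genes was itself shifted by -0.13, or in a fit on these 6 libraries alone. For siRNA_3 alone RFC2 passed without scaling (limma adjusted p = 0.0316), and it lost its call in 8 of 18 alternatives.

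**Figure D4:**
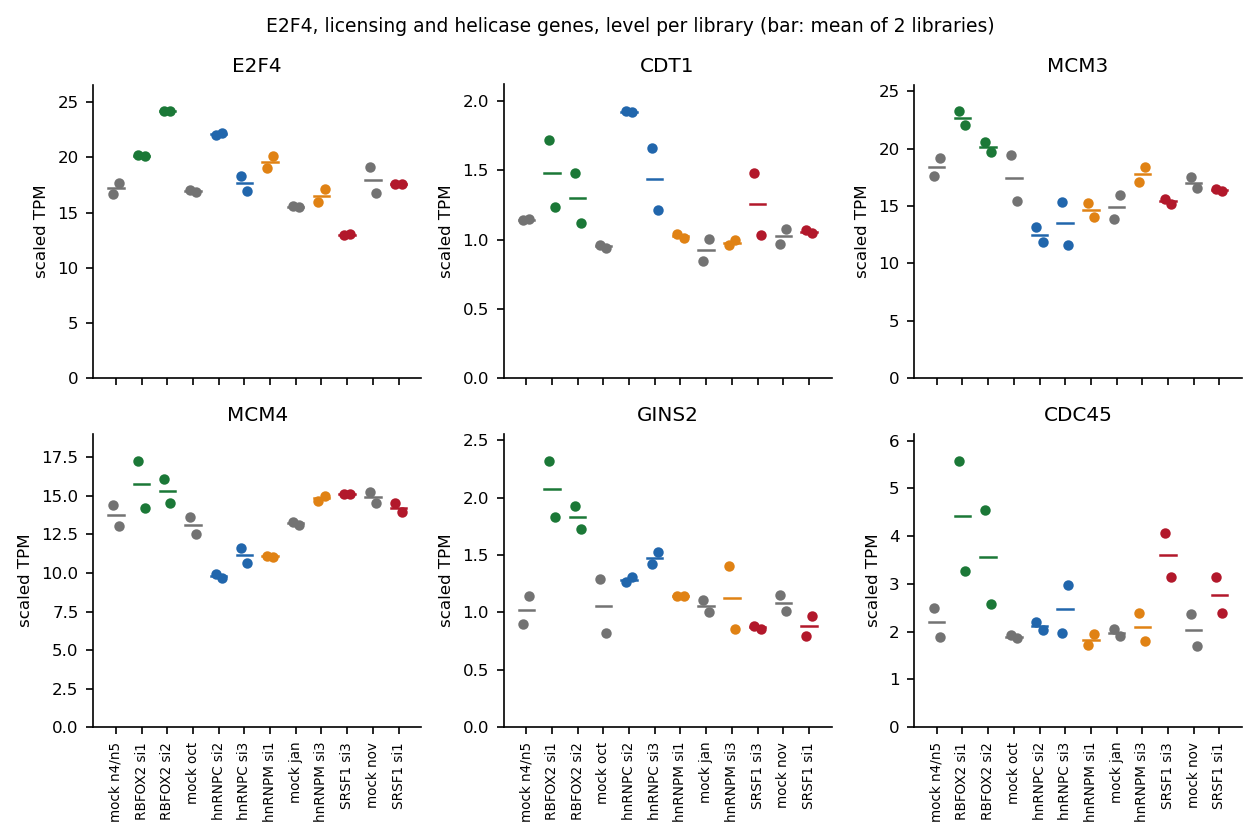
Level (scaled TPM, vertical axis from 0) of E2F4, CDT1, MCM3, MCM4, GINS2 and CDC45 in each library, with each siRNA group to the right of its mock set and the bar at the mean of 2 libraries. GINS2 is highest in the RBFOX2 siRNA libraries (1.73 to 2.33), CDT1 is highest in those of hnRNPC siRNA_2 (1.93 and 1.92), and MCM4 is lowest there (9.94 and 9.66).

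hnRNPM binds GU-rich sequence and regulates splicing. After its depletion limma called 0 of 45 members (3 higher and 2 lower at an unadjusted p under 0.05), where 1.04% of all genes were called (0.359% higher and 0.677% lower) and 10.8% had an unadjusted p under 0.05. The median was -0.02 with 19 of 45 higher, where 48.9% of all genes were, but the siRNAs stood on opposite sides of mock: 8 of 45 members were higher with siRNA_1 (median -0.17) and 36 of 45 with siRNA_3 (median 0.07). The direct test of the difference between the siRNAs called 0 members by limma and 0.0412% of all genes. The siRNAs had different mock sets, oct and jan, and 17 of 45 members had the same sign for both.

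PRIM1, the catalytic primase subunit, had the lowest fold change. It stood at 4.65 and 4.40 scaled TPM in the oct mock libraries against 3.38 and 3.06 with siRNA_1, and at 4.95 and 4.46 in the jan mock libraries against 3.64 and 3.27 with siRNA_3. All 4 siRNA libraries were below all 4 mock libraries, which held for no other member in that direction and for 2.54% of all genes; 0 members had the reverse, which 1.82% of all genes did. The log2 fold change was -0.37 (SE 0.104, limma adjusted p = 0.126), and with the replicate block it passed the test (adjusted p = 0.0100), as the only member called there, where 2.09% of all genes were.

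GINS4, another GINS subunit, stood at 5.57 and 4.92 in oct mock, 3.28 and 4.18 with siRNA_1, 5.72 and 5.48 in jan mock and 5.42 and 4.83 with siRNA_3 (log2 fold change -0.26, limma adjusted p = 0.293). At the other end, MCM5 stood at 8.44 and 6.97 in oct mock, 7.93 and 7.71 with siRNA_1, 6.56 and 7.68 in jan mock and 9.70 and 10.7 with siRNA_3 (0.24, adjusted p = 0.254). Cyclin E1, encoded by CCNE1 and a partner of CDK2 at the G1/S transition, stood at 4.80 and 4.10 in oct mock, 4.84 and 5.80 with siRNA_1, 5.23 and 5.25 in jan mock and 6.48 and 5.45 with siRNA_3 (0.18, adjusted p = 0.354). None of the 3 passed the test. The rank correlation of GC content with fold change was 0.41 over protein-coding genes and 0.46 over members in this comparison.

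SRSF1 is a serine/arginine-rich splicing factor that binds exonic enhancers. After its depletion 3 members fell, RFC1, POLA1 and POLA2, and 0 rose, where 5.01% of all genes were called lower and 4.36% higher (9.37% in all). At an unadjusted p under 0.05, 6 members were higher and 7 lower (23.3% of all genes in either direction). The members' median was 0.05, with 28 of 45 higher, where 49.3% of all genes were. RFC1 was reduced to 47% of its mock mean, the largest log2 fold change of a member in the 4 comparisons.

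RFC1 stood at 19.4 and 22.2 scaled TPM in the nov mock libraries against 10.1 and 10.1 with siRNA_1, and at 20.0 and 18.1 in the jan mock libraries against 8.35 and 8.98 with siRNA_3. The 4 siRNA libraries lay below every other library of the study, whose lowest value was 13.4. The log2 fold change was -1.01 (SE 0.0579, 95% interval -1.14 to -0.89, limma adjusted p = 1.05e-07), with -0.98 for siRNA_1 and -1.05 for siRNA_3. It was the member called for each siRNA alone, with 2.95% and 3.25% of all genes, and the siRNAs differed for 0 members and 0.00588% of all genes. Over both siRNAs it passed the test in all 20 alternatives (highest adjusted p 0.00248). With siRNA_3 alone it also passed in all 20, while with siRNA_1 alone the call was lost on unscaled values (-0.83, limma adjusted p = 0.107).

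The other 4 subunits of the loader were not called, although RFC4 was called lower with the replicate block. RFC2 stood at 12.6 and 11.4 scaled TPM in nov mock against 11.7 and 10.7 with siRNA_1, and at 9.26 and 9.91 in jan mock against 10.7 and 10.1 with siRNA_3 (log2 fold change 0.01, 95% interval in the same fit -0.14 to 0.16). For RFC3, RFC4 and RFC5 the log2 fold changes were 0.04, -0.19 and 0.19 (limma adjusted p = 0.921, 0.168 and 0.240). The ratio of RFC1 to the geometric mean of RFC2 to RFC5 was 0.728 to 1.09 in the 4 SRSF1 siRNA libraries and 1.18 to 2.21 in the other 20. RFC1 was the second most abundant of the 5 subunit mRNAs in each of those 20 libraries and ranked 3 or 4 in the SRSF1 siRNA libraries. 

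**Figure D5:**
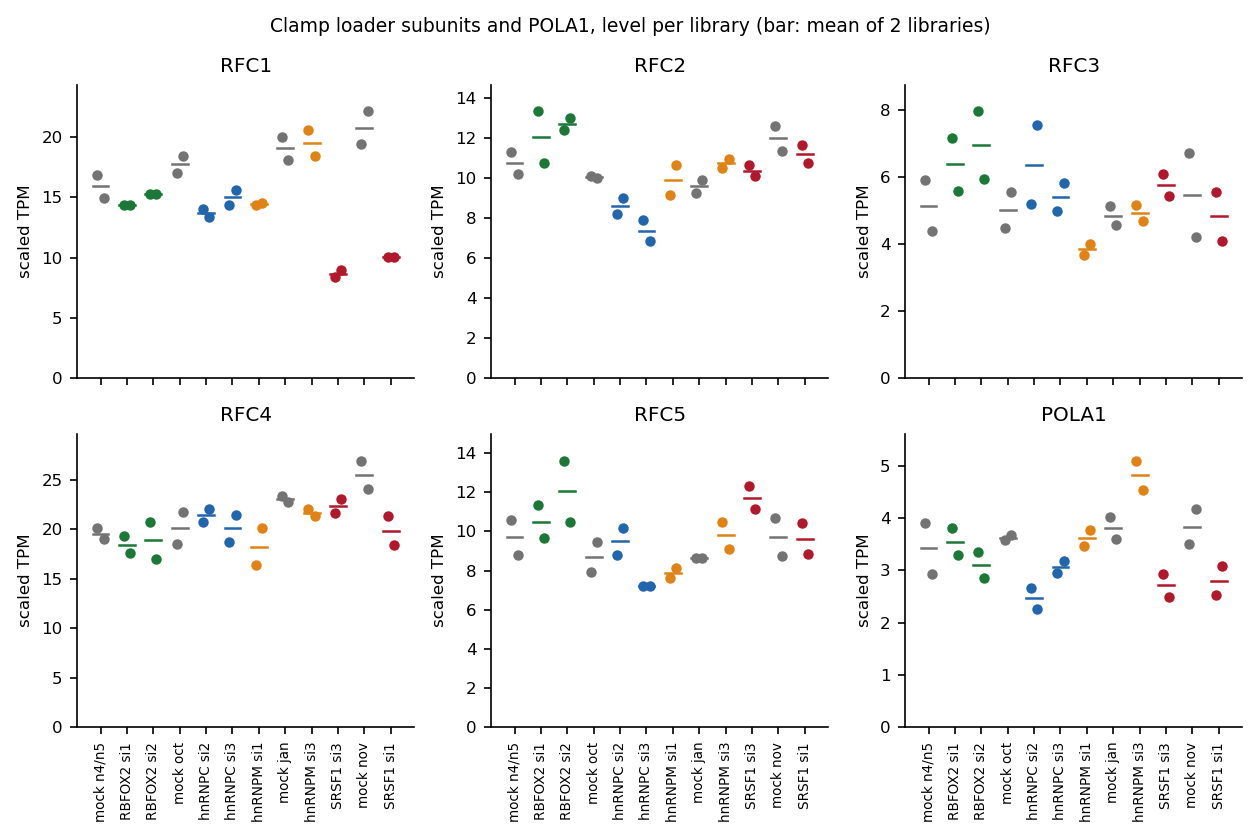
Level (scaled TPM, vertical axis from 0) of the 5 clamp loader genes and POLA1 in each library, with the bar at the mean of 2 libraries. RFC1 is at 8.35 to 10.1 in the 4 SRSF1 siRNA libraries and at 13.4 or above in all others, while RFC2 stays at 10.1 to 11.7 in the SRSF1 siRNA libraries, within the 9.26 to 12.6 of their mock sets.

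POLA1 and POLA2 encode the catalytic and the second subunit of DNA polymerase alpha, which extends the primers made by PRIM1 and PRIM2. POLA1 stood at 3.51 and 4.16 scaled TPM in nov mock against 2.52 and 3.08 with siRNA_1, and at 4.03 and 3.59 in jan mock against 2.93 and 2.49 with siRNA_3 (log2 fold change -0.36, SE 0.0842, limma adjusted p = 0.0134). POLA2 stood at 3.04 and 2.86 in nov mock against 2.15 and 2.20, and at 2.96 and 2.68 in jan mock against 2.16 and 1.92 (-0.32, SE 0.0739, limma adjusted p = 0.0125). In both genes the 4 siRNA libraries lay below the 4 mock libraries, whereas the primase genes were near mock (PRIM1 -0.01, PRIM2 -0.03). POLA1 lost its call without mock jan replicate 1 (adjusted p = 0.0623), mock nov replicate 2 (0.0575), siRNA_1 replicate 1 (0.0649) or siRNA_3 replicate 2 (0.0617). POLA2 lost its call without mock jan replicate 1 (log2 fold change -0.29) or siRNA_3 replicate 2 (-0.29). The processed pseudogene EEF1B2P3, which lies inside POLA1 on the opposite strand, also fell (-0.32, limma adjusted p = 0.0350), at a far higher level of 94.6 to 148 scaled TPM; since the use of strand in counting is not given, reads of the overlapping pair cannot be told apart.

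The highest fold changes after SRSF1 depletion were those of CDC45 and of TK1, the cytosolic thymidine kinase. CDC45 stood at 2.37 and 1.70 scaled TPM in nov mock against 3.15 and 2.39 with siRNA_1, and at 2.06 and 1.90 in jan mock against 4.07 and 3.15 with siRNA_3 (0.47, SE 0.158, limma adjusted p = 0.0802). TK1 stood at 6.81 and 5.01 in nov mock against 8.34 and 7.52, and at 6.32 and 5.59 in jan mock against 9.56 and 6.92 (0.39, SE 0.179, adjusted p = 0.206). Every siRNA library was above every mock library in both genes, as in 5 members in all and 6.71% of all genes. With the replicate block both passed the test, and limma called 12 members, 5 higher (CDC45, TK1, POLD1, RRM1 and RRM2) and 7 lower (RFC1, RFC4, POLA1, POLA2, CDC6, ORC6 and UNG), where 16.5% of all genes were called. Among the 8 tested epithelial and ovarian carcinoma markers, KRT7 (-0.69) and KRT8 (-0.26) fell in this comparison. The fold changes of the other markers are not given here, and the part of these keratins in the results was not tested.

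Differences between proteins were tested directly in the same model, for 6 pairs of proteins. RFC1 was lower after SRSF1 depletion than after that of RBFOX2, hnRNPC or hnRNPM, by 0.92, 0.73 and 0.89 on the log2 scale (limma adjusted p = 0.000112, 0.000318 and 4.76e-06). E2F4 was also lower after SRSF1 depletion than after each of the other 3, by 0.48, 0.34 and 0.27 (adjusted p = 0.00422, 0.0131 and 0.00889), although its own log2 fold change there, -0.13, did not pass (limma adjusted p = 0.0918). Mean E2F4 was 17.6 scaled TPM with SRSF1 siRNA_1 against 18.0 in nov mock, and 13.0 with siRNA_3 against 15.5 in jan mock. The difference between these siRNAs was not called. MCM4 was lower after hnRNPC depletion than after each of the other 3, and MCM3 lower than after RBFOX2 or hnRNPM depletion. The MCM4 differences lost their calls in 10 of 22, 12 of 22 and 12 of 24 alternatives (RBFOX2, hnRNPM, SRSF1), and those of MCM3 in 13 of 22 (RBFOX2) and 8 of 22 (hnRNPM). The members that differed numbered 2 between RBFOX2 and hnRNPC (1.55% of all genes), 4 between RBFOX2 and SRSF1 (2.19%), 5 between hnRNPC and hnRNPM (7.76%), 4 between hnRNPC and SRSF1 (6.17%), 5 between hnRNPM and SRSF1 (7.79%) and 0 between RBFOX2 and hnRNPM (0.2%).

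Across the 8 siRNA groups, CCNE1, CDT1 and POLE, the catalytic subunit of DNA polymerase epsilon, were above mock in each, and 0 members were below in each. The share of all genes with the same sign in all 8 groups was not counted, and the groups share mock sets. Some gaps were small: mean POLE was 2.89 scaled TPM with SRSF1 siRNA_1 and 2.82 in nov mock. The counts are therefore a description only. Over the 24 libraries MCM7 (Pearson r = 0.92), RRM2 (0.90), RRM1 (0.89) and TK1 (0.89) followed the median of the other members most closely, and RFC1 (-0.16) and POLA1 (-0.07) least; the median over all other tested genes was 0.01. These correlations describe libraries that share mock sets, replicates and GC trends, so no test is given. RRM1 and RRM2 encode the large and small subunits of ribonucleotide reductase.

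Of 79 other genes of the same pathways, listed for their roles, 75 were tested. After RBFOX2 and after hnRNPM depletion limma called 0 of them, where 0.112% and 1.04% of all genes were called. After hnRNPC depletion the genes called were CDKN1A, POLE3 and RBBP4, where 6.45% of all genes were called. CDKN1A, which encodes the CDK inhibitor p21, rose by 0.49 (SE 0.137, limma adjusted p = 0.0459), a call lost in 11 of 18 alternatives. In the same comparison POLE3, a histone-fold subunit of DNA polymerase epsilon, fell by 0.48 (SE 0.0562, adjusted p = 0.000187) and RBBP4, a histone-binding subunit of CAF-1, by 0.28 (SE 0.0616, adjusted p = 0.0134). RBBP4 lost its call in 4 of 18 alternatives, among them without mock oct replicate 1 (adjusted p = 0.113) and with the GC correction (0.0759). POLE3 stood at 26.7 and 27.7 scaled TPM in mock, 14.7 and 16.1 with siRNA_2 and 22.8 and 25 with siRNA_3.

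After SRSF1 depletion 6 of the 75 were called, where 9.37% of all genes were. Of these, 2 rose, the D-type cyclin CCND3 (0.41, limma adjusted p = 0.0108) and RNASEH2C of ribonuclease H2 (0.28, adjusted p = 0.0140). In the same comparison 4 fell: RBL1, which encodes the pocket protein p107 (-0.55), the mitochondrial thymidine kinase TK2 (-0.43), the D-type cyclin CCND1 (-0.29) and the fork factor DONSON (-0.19), with limma adjusted p of 0.000278, 0.00542, 0.0321 and 0.0429. RBL1 stood at 3.42 and 3.64 scaled TPM in nov mock against 2.47 and 2.02 with siRNA_1, and at 3.84 and 3.38 in jan mock against 2.11 and 1.91 with siRNA_3. RBL1 kept its call in all 19 alternatives. The call was lost in 1 of 20 for TK2, 2 of 19 for CCND3 and 4 of 20 for RNASEH2C. For CCND1 it was lost in 9 of 20 and for DONSON in 12 of 20. RNASEH2C, CCND1 and DONSON each lost theirs without several single libraries.

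A list of 25 genes of the G2/M phase, all tested, gave 0 calls by limma in any of the 4 comparisons and 0 at an unadjusted p under 0.05. Of all genes, 0.112%, 6.45%, 1.04% and 9.37% were called for RBFOX2, hnRNPC, hnRNPM and SRSF1. At that unadjusted p, 12.2%, 20.9%, 10.8% and 23.3% of all genes passed. The list's median after RBFOX2 depletion was 0.05, with 15 of 25 higher, where 50.9% of all genes were. For the replication genes the median was 0.19, with 40 of 45 higher. After hnRNPM depletion 24 of 25 were below mock (median -0.14), with 25 of 25 for siRNA_1 (median -0.31) and 10 of 25 for siRNA_3 (median 0.03). Of all genes, 48.9% were above mock there, with 45.9% for siRNA_1 and 53.1% for siRNA_3. For hnRNPC the siRNAs stood apart, with 17 of 25 higher for siRNA_2 (median 0.17) and 24 of 25 lower for siRNA_3 (median -0.26). Of all genes, 49.1% were higher for siRNA_2 and 46.5% for siRNA_3.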

How the data were processed

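RNA abundance was deposited by the authors as TPM for 57773 genes in 24 libraries, summing to the same total in each library. Per the submitters' processing notes, the tools named are SAMtools 0.1.19.0, Bowtie2 2.1.0.0, TopHat2 2.0.9, Trimmomatic 0.38 and FastQC 0.10.1, and the build is hg19. The counting tool, annotation, use of strand and depth are not given in the sources used here. By GENCODE 29, 26 of the 46 genes overlap another gene, 20 of them on the opposite strand, and reads there may be shared.

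TPM were divided by median-ratio factors over 22727 genes above 0 in all libraries (0.664 to 1.41) and taken as log2(value + 1), which understates the fold changes of weakly expressed genes. Genes at 1 TPM or more in at least 2 libraries were fitted in limma 3.58.1 (R 4.3.3) with 12 group means and an empirical Bayes trend (degrees of freedom: 12 residual, 3.04 prior). The contrast of a protein averaged its 2 siRNA-minus-mock differences. Calls required the same sign for the 2 siRNAs and p under 0.05 after Benjamini-Hochberg adjustment over all genes; single siRNAs and differences needed the adjusted p alone. The fit was also run on simulated libraries with independent noise. These do not hold the shared deviations of same-numbered libraries or the GC trends, so calls under those were not checked.

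Replicate numbers come from the labels. Same-numbered siRNA and mock libraries deviated together (r = 0.12 to 0.43 over 8 pairs of groups), so the fit with the number as a block is given beside each protein. Of 276 pairs of libraries 0 held identical values.

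The members and the other gene lists were chosen with earlier results of these data known. Values per library are given for members called in any comparison of a protein or siRNA and for the highest and lowest 2 per protein; MCM7 was added after its values were seen. Promoters came from RefSeq (GRCh38.p14), where 41 of 46 symbols matched; GC content came from GENCODE 29 by gene identifier. The alternatives were unscaled values, quantile normalisation, a pseudocount of 0.1, no filter and a filter at 5 TPM, the block, no trend, robust moderation, all 8 mock libraries as control, a GC correction with and without the block, each protein's libraries alone and leaving out each library. A gene among those most like RFC1 is not reported here.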

Additional observations from a re-analysis of the deposited data

Results flagged for a closer look

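Effects on a gene were set against each other between siRNAs of a protein or between proteins, and the following differences passed limma's test of the difference itself at an adjusted p under 0.05. All are on the log2 scale, and each protein's effect is against its own mock sets.

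Between the hnRNPC siRNAs, GINS1 (0.52) and E2F4 (0.31) were higher with siRNA_2 than with siRNA_3. Each lost its call in 4 of 17 alternatives, and without siRNA_2 replicate 3 GINS1 was at 0.32 (limma adjusted p = 0.309) and E2F4 at 0.31 (0.0608). The effect of RBFOX2 depletion was above that of hnRNPC depletion for MCM3 (0.60) and MCM4 (0.46). It was above that of SRSF1 depletion for RFC1 (0.92), GINS2 (0.68), the uracil-DNA glycosylase gene UNG (0.50) and E2F4 (0.48). The RBFOX2 libraries of UNG, at 13.1 to 13.7 scaled TPM, lay above the 10.7 and 11.4 of their mock set, and those of SRSF1, at 6.65 to 9.83, overlapped with their mock sets at 8.93 to 10.5.

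The effect of hnRNPC depletion minus that of hnRNPM depletion was 0.40 for CDT1, -0.40 for MCM3, -0.27 for MCM4, -0.37 for RFC2 and -0.44 for POLA1. The effect of hnRNPC depletion minus that of SRSF1 depletion was 0.73 for RFC1, 0.55 for POLA2, 0.34 for E2F4 and -0.36 for MCM4. The effect of hnRNPM depletion minus that of SRSF1 depletion was 0.89 for RFC1, 0.50 for POLA1, 0.31 for UNG, 0.27 for E2F4 and -0.40 for GINS4. Of these, RFC1 and E2F4 for RBFOX2 minus SRSF1 and RFC1 for hnRNPM minus SRSF1 passed the test in all 24 alternatives. The others lost it in some. For RBFOX2 minus hnRNPC, MCM3 lost it in 13 of 22 and MCM4 in 10 of 22; for RBFOX2 minus SRSF1, UNG in 14 of 24 and GINS2 in 8 of 23. For hnRNPC minus hnRNPM, MCM4 lost it in 12 of 22, MCM3 in 8 of 22, POLA1 in 5 of 22, RFC2 in 4 of 22 and CDT1 in 11 of 21. For hnRNPC minus SRSF1, MCM4 lost it in 12 of 24, E2F4 in 2 of 24, RFC1 in 1 of 24 and POLA2 in 2 of 23. For hnRNPM minus SRSF1, GINS4 and UNG lost it in 14 of 24 each, and POLA1 and E2F4 in 1 of 24 each.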

How the results depend on the processing

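The counts of members called depend on the fit, while RFC1 after SRSF1 depletion, over both siRNAs, was called in every alternative. Main counts were 1 (RBFOX2), 6 (hnRNPC), 0 (hnRNPM) and 3 (SRSF1). With the replicate block they were 8, 11, 1 and 12, where 2.14%, 13.3%, 2.09% and 16.5% of all genes were called. With block and GC correction they were 10, 15, 1 and 15, where 2.97%, 16%, 3.23% and 21.2% of all genes were called. The block also brought E2F1 in hnRNPC (limma adjusted p = 0.0351) past the threshold and ended none of the reported calls. GC correction alone gave 0 for RBFOX2 and 6 for SRSF1, and no trend gave 0 for RBFOX2. The share of all genes called in those fits is not given here. In hnRNPC, E2F4 lost its call with GC correction (adjusted p = 0.0581) and no trend (0.0585), RFC2 with no trend (0.0605), no filter (0.0959) and quantile normalisation (0.0534), and MCM3 with no filter (0.0658) and quantile normalisation (0.0575). With all 8 mock libraries as control they were 27, 13 and 6 for RBFOX2, hnRNPC and SRSF1, where 29.4%, 26% and 15.5% of all genes were called. Unscaled values gave 0, 0 and 1 for these 3, with medians of 0.43 for RBFOX2 and -0.13 for hnRNPC; the median of all genes itself moved by 0.21 and -0.13, and RFC1 (0.16) and RFC4 (0.19) turned to above mock after RBFOX2 depletion. Fits on a protein's own libraries gave 0 for RBFOX2 and 0 for hnRNPC, with fewer samples behind the spread. Leaving out each library gave 0 for RBFOX2, 0 to 5 for hnRNPC, 0 for hnRNPM and 1 to 3 for SRSF1, and a median of 0.10 to 0.28 for RBFOX2. The cause of the other differences was not tested. A left-out library leaves a group with 1 sample, which is assumed to vary like the others. Depth is unknown, so the counting error of members near 1 TPM (CDT1, GINS2, ORC1) cannot be given.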

Other observations

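Among the genes whose pattern over the 12 group means was most like that of RFC1 were LINC00857 (Pearson r = 0.96) and IMPDH2 (0.93), taken from the highest of all tested genes, so the values are a description with no test. For E2F4 they were DPH7 (0.95), TRAF4 (0.94) and SSNA1 (0.94), and for POLA2 EFCAB11 (0.96), HDAC6 (0.94) and PPIH (0.93). CCNE2, left out of the tests, was listed at 0.236 to 0.583 scaled TPM over the 24 libraries, with 0.479 and 0.583 in the hnRNPC siRNA_2 libraries and 0.359 and 0.332 in their mock set.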
